A study of Mus musculus and Homo sapiens with 19 samples.

Results

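Mouse mammary tumour lines 4T1 and EMT6.5 were compared as cell lines, and the genes that set them apart whether or not the cells had shared a dish with endothelial cells were described. The comparison used 4 of the 19 libraries of the series, 2 for each line. The 4T1 group held 1 library of 4T1 cells cultured alone and 1 of 4T1 cells sorted from a co-culture with Bend3. The EMT6.5 group held 1 library of EMT6.5 cells cultured alone and 1 of EMT6.5 cells sorted from a co-culture with Bend3. Bend3 is a mouse endothelial line; its 3 libraries, from cells alone, with 4T1 and with EMT6.5, served to show what a partner cell would contribute. The 3 replicates of 4T1 with a scrambled shRNA (shSCR, in the pLKO.1 vector) came from the knockdown experiment of the same series and were not part of the comparison, so they showed 4T1 levels from a separate experiment and count table. No other allele, agent, age or time was labelled for these groups, and the labels do not say that libraries came from separate cultures.

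Epithelial cells hold together through E-cadherin junctions, claudins and desmosomes, a state kept by factors such as Grhl2, Ovol1 and the splicing regulators Esrp1 and Esrp2. Carcinoma cells can lose part of this program and gain mesenchymal genes, among them contractile proteins, fibrillar collagens and the transcription factors Snai2, Prrx1 and Zeb1. Repressors of the Snail and Zeb families, Snai2 and Zeb1 among them, are known to bind the E-box letters CAGGTG, which read CACCTG on the other strand, in promoters of epithelial genes.

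Genes were called at a Benjamini-Hochberg adjusted p under 0.05 in edgeR's quasi-likelihood test with culture as a block. The limits given beside calls come from alternatives: DESeq2, a fit without the block, a test against 2-fold in place of no change, all 7 co-culture libraries, and each of the 4 libraries left out. A gene separated the lines when it was called and differed at least 2-fold, in the same direction, both between the cells alone and between the cells from co-culture. Values are counts per M gene counts (CPM), and log2 fold changes are 4T1 over EMT6.5. Where a line is given a pair of values, they are for the cells alone and then for the cells from co-culture. Of 12005 genes tested, 543 were higher in 4T1 (4.52%) and 680 were lower in 4T1 (5.66%), 10.2% in all. Of these, 516 (4.3%) separated the lines as higher in 4T1 and 655 (5.46%) as lower in 4T1, 9.75% in all. The median log2 fold change over all genes tested was -0.003. Separating genes higher in 4T1 had a median absolute log2 fold change of 5.31, and 302 of them differed 16-fold or more. Separating genes lower in 4T1 had a median of 3.25, and 265 differed 16-fold or more.

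**Figure D1:**
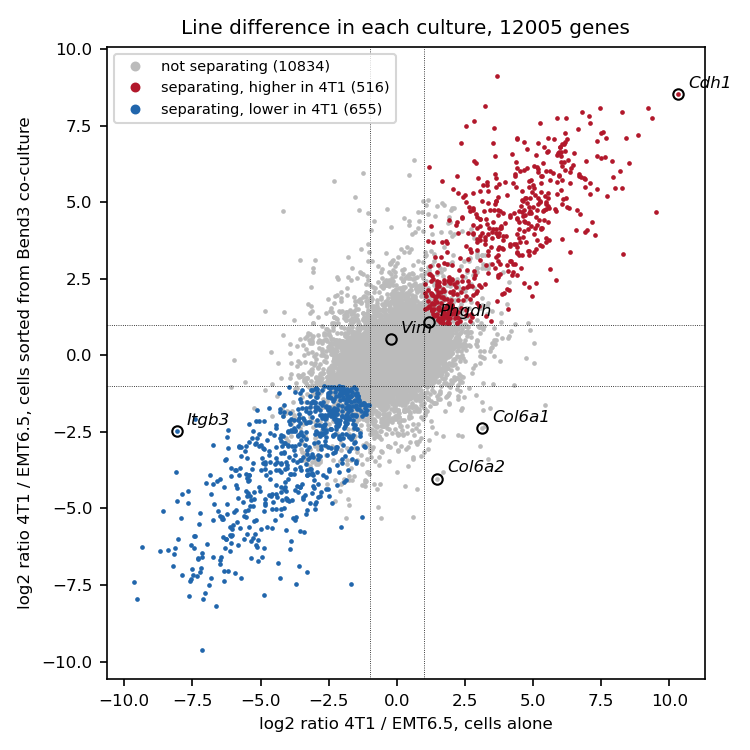
Log2 ratio of 4T1 to EMT6.5 for each gene tested, from cells alone (x axis) and from cells sorted out of Bend3 co-culture (y axis), on TMM-scaled log2 CPM with a prior count of 2. Red points are the 516 separating genes higher in 4T1, blue points the 655 lower in 4T1, grey points all others, and dotted lines mark 2-fold. Cdh1 lies in the upper right corner, and Col6a1 and Col6a2 lie at lower right, higher in 4T1 alone and lower in 4T1 from co-culture.

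The 4 libraries held 4.305 M gene counts for 4T1 alone, 4.268 M for 4T1 with Bend3, 7.673 M for EMT6.5 alone and 4.688 M for EMT6.5 with Bend3. With 2 libraries a line, both 4T1 libraries lay above both EMT6.5 libraries for 23.9% of genes tested and below both for 26.1%. Each line also differed between its cultures: 27.1% of genes tested were at least 2-fold apart between 4T1 with Bend3 and 4T1 alone, and 14.4% between EMT6.5 with Bend3 and EMT6.5 alone. Across genes, which are not independent replicates, the ratios of the lines in the cultures correlated at 0.718, and 187 genes were at least 2-fold higher in 4T1 in one culture and at least 2-fold lower in the other. Whether a line difference depends on culture could not be tested, since each line has 1 library a culture. RNA of the endothelial partner was low in the sorted tumour cells. The 25 endothelial markers summed to 245 and 566 CPM in 4T1 alone and with Bend3, of which Flt1 gave 97.8 and 283 CPM. They summed to 219 and 241 CPM in EMT6.5 alone and with Bend3, and to between 12900 and 16300 CPM in Bend3.

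Cdh1 encodes E-cadherin. Its level was 648 CPM in 4T1 alone and 451 CPM in 4T1 with Bend3, against 0.130 CPM in EMT6.5 alone and 0.853 CPM in EMT6.5 with Bend3. The lines were far apart in both cultures. The log2 fold change was 10.28 (SE 0.707, edgeR adjusted p = 5.71e-06), and the CPM ratio over both libraries was 1360 with a 95% counting interval of 582 to 4190. The shSCR libraries of 4T1 held 869 ± 15.8 CPM (SD, n = 3).

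Integrin beta 3, encoded by Itgb3 and partner of the alpha v chain in a vitronectin receptor, went the other way. Itgb3 stood at 0.232 CPM in 4T1 alone and 15 CPM in 4T1 with Bend3, against 168 CPM in EMT6.5 alone and 86.2 CPM in EMT6.5 with Bend3. The groups did not overlap, but the 4T1 libraries were themselves far apart. The log2 fold change was -4.63 (SE 1.02, edgeR adjusted p = 0.0103), with a ratio of -8.08 alone and -2.48 in co-culture on the log2 scale. The call was lost in DESeq2 (adjusted p = 0.0848), without the block (edgeR adjusted p = 0.0775), without EMT6.5 alone (0.283) and without EMT6.5 with Bend3 (0.0755), the direction staying the same. Bend3 from the 4T1 co-culture held 123 CPM of Itgb3. Pecam1, an endothelial marker, stood at 30.9 CPM in 4T1 with Bend3 and at 2990 CPM in that Bend3 library, and the part of partner RNA in the Itgb3 value was not tested. In bulk RNA, fewer cells carrying a transcript and less of it in each cell cannot be told apart.

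Phgdh, which encodes the first enzyme of serine synthesis and is the gene the series was built around, was low in all 4 libraries. It stood at 15.1 and 4.92 CPM in 4T1 alone and with Bend3, against 6.52 and 2.13 CPM in EMT6.5 alone and with Bend3. The groups overlapped, and the difference was not called (log2 fold change 1.21, SE 0.747, edgeR adjusted p = 0.401). The shSCR libraries held 170 ± 4.84 CPM (SD, n = 3), above every library of the co-culture set. They came from a separate experiment and count table, and the reason for the gap was not tested.

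Epithelial genes made up the lists with the most genes higher in 4T1. Of 28 tested genes of junctions and adhesion, 15 were higher in 4T1 and 3 lower, with a median log2 fold change of 2.75. Of 13 tested epithelial transcription and splicing regulators, 9 were higher and 0 lower in edgeR, with a median of 4.85; 0 were lower at an unadjusted p under 0.05 or in DESeq2. Of 15 tested genes of the epithelial surface, 7 were higher and 1 lower, with a median of 2.49. Each share lies well above the 4.52% of all genes tested that were higher in 4T1.

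Within the junction genes, tight junctions and desmosomes moved with E-cadherin. Epcam, the epithelial adhesion molecule, had 70.4 and 196 CPM in 4T1 alone and with Bend3, against 0.261 and 0.427 CPM in EMT6.5 alone and with Bend3 (log2 fold change 8.39, SE 0.616, edgeR adjusted p = 6.12e-06). The tight junction gene Cldn3 had 141 and 56.9 CPM in the 4T1 libraries, against 1.56 and 0 CPM in the EMT6.5 libraries. Cldn7 had 17.7 and 14.3 CPM in the 4T1 libraries and no count in EMT6.5, and occludin, encoded by Ocln, had 13.7 and 23.4 CPM in 4T1 and likewise no count in EMT6.5. Desmoglein 2, a desmosomal cadherin encoded by Dsg2, had 77.1 and 51.3 CPM in 4T1, against 0 and 0.213 CPM in EMT6.5. Perp, a desmosome component, had 112 and 159 CPM in 4T1, against 0.261 and 0.213 CPM in EMT6.5. The tricellular junction gene Lsr had 176 and 195 CPM in 4T1, against 0.130 and 1.07 CPM in EMT6.5. Over the 28 tested junction genes, both 4T1 libraries lay above both EMT6.5 libraries for 17 and below both for 3, against 23.9% and 26.1% of all genes. DESeq2 did not call Ocln (adjusted p = 0.161).

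Exceptions in the junction list included Cldn6 and Dsp. The claudin Cldn6 was lower in 4T1, at 0.929 and 1.41 CPM against 95.3 and 14.3 CPM in EMT6.5 (log2 fold change -5.05, edgeR adjusted p = 0.000855). Desmoplakin, encoded by Dsp, which anchors desmosomes to keratin filaments, was also lower, at 74.3 and 79.2 CPM in 4T1 against 208 and 189 CPM in EMT6.5 (-1.36, adjusted p = 0.0348). Cldn6 was not called without EMT6.5 alone (adjusted p = 0.188), and Dsp was not called without the block, against 2-fold, without 4T1 alone or without either EMT6.5 library (0.0528 to 0.473).

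The regulators showed the same split. Esrp1, which directs epithelial splicing, had 91.8 and 29.8 CPM in 4T1 alone and with Bend3 and no count in either EMT6.5 library, so it was at least 251-fold higher, with a floor of 3 counts over both EMT6.5 libraries, though DESeq2 did not call it (adjusted p = 0.0949). Its relative Esrp2 had 17.4 and 7.26 CPM in 4T1 and no count in EMT6.5. Grhl2, which maintains epithelial junction genes, had 24.9 and 29.1 CPM in 4T1 and no count in EMT6.5, at least 111-fold higher by the same floor, and was likewise not called in DESeq2 (adjusted p = 0.121). Gata3, a luminal mammary factor, had 204 and 343 CPM in 4T1, against 5.6 and 14.9 CPM in EMT6.5 (log2 fold change 4.85, SE 0.446). Sox9 and Klf5 were higher in 4T1 by smaller amounts, with log2 fold changes of 1.53 and 1.52. Esrp2 was not called without 4T1 alone (adjusted p = 0.0834) or without EMT6.5 alone (0.0601). Klf5 lost its call without the block, against 2-fold, without 4T1 alone and without either EMT6.5 library (adjusted p = 0.102 to 0.535). Sox9 lost it without the block, against 2-fold, with all 7 libraries, without 4T1 with Bend3 and without either EMT6.5 library (0.0729 to 0.446).

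Of the 15 tested genes of the epithelial surface, 7 were higher in 4T1, 1 was lower and 7 were not called. Among the higher genes, the protease matriptase, encoded by St14, had 91.5 and 50.8 CPM in 4T1, against 0.130 and 0.213 CPM in EMT6.5. Cd24a, a glycosylated surface protein, had 40.2 and 116 CPM in 4T1, against 2.22 and 1.92 CPM in EMT6.5.

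Keratins did not follow the junction genes as a group. Krt19 was higher in 4T1, at 35.3 and 71.5 CPM against 2.61 and 0.427 CPM in EMT6.5, and so was Krt10. The simple keratin Krt18 had 428 and 825 CPM in 4T1, against 407 and 383 CPM in EMT6.5 (log2 fold change 0.60, SE 0.4, edgeR adjusted p = 0.445). Its partner Krt8 had 63.7 and 180 CPM in 4T1, against 163 and 134 CPM in EMT6.5, and was not called (adjusted p = 0.651). Of 7 keratins tested, 2 were higher and 0 lower in edgeR (1 lower at an unadjusted p under 0.05, 0 in DESeq2). The share called was 28.6%, against 10.2% of all genes. Krt7 and Krt14 were likewise not called.

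**Figure D2:**
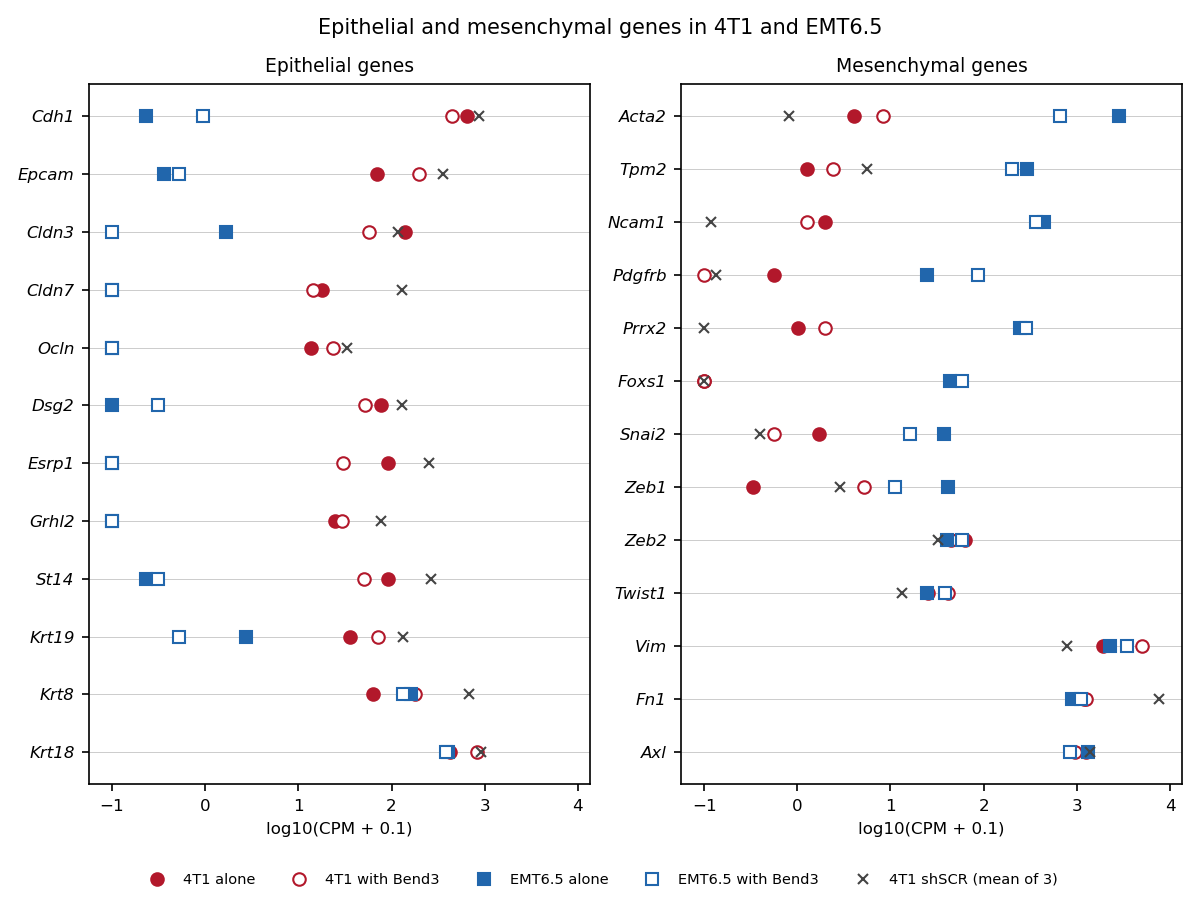
Levels of 12 epithelial (left) and 13 mesenchymal (right) genes as log10(CPM + 0.1). Red circles are 4T1, blue squares EMT6.5, filled for cells alone and open for cells sorted from Bend3 co-culture, and crosses are the mean of the 3 shSCR libraries of 4T1. Junction genes and their regulators lie further to the right for 4T1 than for EMT6.5, while Krt8, Krt18, Vim, Fn1 and Axl were not called.

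Promoter windows of some of these epithelial genes were searched for the letters that Snail and Zeb repressors are known to bind. RefSeq promoter windows on GRCm38.p6 were used, which run from 250 bases before to 50 after the start site. They covered 14 of the 31 epithelial genes that separated the lines as higher in 4T1. The other genes, with Cdh1, Esrp1, Grhl2 and St14 among them, were not searched, so the counts below do not speak to them. CAGGTG, searched on both strands, was present in 11 of the 14 genes. Among tested genes with a window that did not separate the lines, 1533 of 7990 held it. Cgn, Gata3 and Spint1 held no copy, and only windows that held the letters are printed below. Cldn7 and Ocln each had a window with 2 copies, which is not printed here. Crb3 (an apical polarity gene), Lsr and Ap1m2 (an epithelial vesicle adaptor) held 4 copies each in the windows below, and Epcam, Cldn4 and Rab25 (a vesicle GTPase of epithelia) held 2 each. Of the genes with windows printed below, Ap1m2, Cldn4, Crb3 and Rab25 lost their calls without EMT6.5 with Bend3 (adjusted p = 0.0615 to 0.645), and Ap1m2, Cldn4 and Crb3 with all 7 libraries (0.0702 to 0.19). Cldn4 also lost its call without the block (0.406) and without either 4T1 library (0.656 and 0.199). Crb3 was not called without 4T1 with Bend3 (0.0568) or without EMT6.5 alone (0.308), and Ap1m2 not in DESeq2, against 2-fold, without 4T1 alone or without EMT6.5 alone (0.0701 to 0.389). The E-box letters are in capitals, CAGGTG or its reverse complement CACCTG.
Crb3, chr17:57061951-57062250, plus strand: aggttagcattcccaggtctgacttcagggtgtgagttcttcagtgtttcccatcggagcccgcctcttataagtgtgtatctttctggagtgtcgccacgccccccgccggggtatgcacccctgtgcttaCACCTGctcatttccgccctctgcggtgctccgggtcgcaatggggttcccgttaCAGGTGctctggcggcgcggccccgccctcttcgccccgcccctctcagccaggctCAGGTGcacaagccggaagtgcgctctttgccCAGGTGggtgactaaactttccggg
Lsr, chr7:30973420-30973719, minus strand: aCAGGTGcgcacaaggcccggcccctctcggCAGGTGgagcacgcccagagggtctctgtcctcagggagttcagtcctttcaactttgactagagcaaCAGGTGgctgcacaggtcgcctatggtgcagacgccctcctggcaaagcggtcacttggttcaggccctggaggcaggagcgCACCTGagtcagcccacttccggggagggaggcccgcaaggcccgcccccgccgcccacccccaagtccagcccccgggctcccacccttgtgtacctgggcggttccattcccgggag
Ap1m2, chr9:21312284-21312583, minus strand: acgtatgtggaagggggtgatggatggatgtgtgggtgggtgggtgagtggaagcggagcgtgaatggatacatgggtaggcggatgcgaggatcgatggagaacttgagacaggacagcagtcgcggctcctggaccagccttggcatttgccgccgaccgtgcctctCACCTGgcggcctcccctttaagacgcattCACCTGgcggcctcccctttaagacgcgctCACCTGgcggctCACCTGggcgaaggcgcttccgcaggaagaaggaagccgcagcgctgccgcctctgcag
Epcam, chr17:87635729-87636028, plus strand: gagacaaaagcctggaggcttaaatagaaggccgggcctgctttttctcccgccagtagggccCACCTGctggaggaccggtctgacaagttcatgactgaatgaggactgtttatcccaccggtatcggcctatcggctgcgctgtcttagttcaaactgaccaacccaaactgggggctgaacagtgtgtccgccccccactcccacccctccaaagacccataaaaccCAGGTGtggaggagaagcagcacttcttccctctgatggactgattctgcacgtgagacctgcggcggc
Cldn4, chr5:134946885-134947184, minus strand: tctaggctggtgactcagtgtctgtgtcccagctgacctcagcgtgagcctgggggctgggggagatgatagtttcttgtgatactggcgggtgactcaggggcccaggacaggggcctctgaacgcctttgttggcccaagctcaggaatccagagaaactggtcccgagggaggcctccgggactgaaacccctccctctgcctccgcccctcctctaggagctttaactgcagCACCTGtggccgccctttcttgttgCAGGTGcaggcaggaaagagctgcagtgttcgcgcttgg
Rab25, chr3:88548230-88548529, minus strand: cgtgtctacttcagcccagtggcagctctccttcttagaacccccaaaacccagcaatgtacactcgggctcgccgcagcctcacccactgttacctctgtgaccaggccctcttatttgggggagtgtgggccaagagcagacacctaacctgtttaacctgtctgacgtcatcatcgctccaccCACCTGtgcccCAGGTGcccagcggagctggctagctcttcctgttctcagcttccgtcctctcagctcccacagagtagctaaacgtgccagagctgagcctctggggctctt

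Over larger sets the same letters were unevenly spread. Genes near 0 in one line were defined as those with at most 3 counts over both libraries of that line and a mean of at least 10 CPM in the other. CAGGTG was present in the window of 42.6% of genes near 0 in EMT6.5 (40 of 94 with a window) and of 16.9% of genes near 0 in 4T1 (11 of 65). It was present for 31.6% of 377 separating genes higher in 4T1, for 24.9% of 466 separating genes lower in 4T1 and for 1533 of 7990 tested genes that did not separate the lines. Of all 32851 promoter windows, 6640 held it. These sets had 1.33, 1.14, 1.37, 1.38 and 1.27 windows a gene, in the order just given. The related letters CAGCTG stood in 19.1% of genes near 0 in EMT6.5, 26.2% of those near 0 in 4T1 and 16.6% of genes that did not separate the lines. CACGTG stood in 9.57%, 7.69% and 12.2% of the same 3 sets. TATAAA or its reverse complement stood in 9.57%, 13.8% and 7.91%. CGCG, found where promoters are rich in CpG, stood in 79.8% of genes near 0 in EMT6.5, 38.5% of those near 0 in 4T1 and 79.2% of genes that did not separate the lines. The 5 motifs were chosen after values were seen, and a match is a description of letters, not of binding.

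Mesenchymal regulators were not uniformly lower in 4T1. Of 15 tested, 5 were lower and 2 higher in 4T1, against 5.66% lower and 4.52% higher among all genes, and the median log2 fold change was -0.71. Prrx2, a homeobox factor of mesenchyme, had 0.929 and 1.87 CPM in 4T1 alone and with Bend3, against 244 and 288 CPM in EMT6.5 alone and with Bend3 (log2 fold change -7.56, SE 0.537, edgeR adjusted p = 5.71e-06). Foxs1 had no count in 4T1 and 43.9 and 57.8 CPM in EMT6.5, and DESeq2 did not call it (adjusted p = 0.102). Snai2, the repressor also called Slug, had 1.63 and 0.469 CPM in 4T1, against 37.8 and 16.2 CPM in EMT6.5 (-4.71, adjusted p = 0.000726), a call lost without EMT6.5 alone (adjusted p = 0.154). Prrx1 and Foxc1 were lower too, with log2 fold changes of -6.35 and -1.72. Prrx1 was not called without EMT6.5 with Bend3 (adjusted p = 0.277). Foxc1 was not called without the block, against 2-fold, without 4T1 alone or without either EMT6.5 library (adjusted p = 0.191 to 0.632).

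The other well known repressors of Cdh1 gave less clear values. Zeb1 had 0.232 and 5.15 CPM in 4T1, against 41.3 and 11.1 CPM in EMT6.5, so the groups did not overlap, but the difference missed the threshold (log2 fold change -3.32, SE 1.1, edgeR adjusted p = 0.0836). Bend3 held 144 to 206 CPM of Zeb1. Zeb2 had 63.4 and 45.0 CPM in 4T1 and 40.3 and 58.5 CPM in EMT6.5, and Twist1 had 25.1 and 41.7 CPM in 4T1 and 24.6 and 38.0 CPM in EMT6.5. Both lines thus carried Zeb2 and Twist1 transcripts at overlapping levels (adjusted p = 0.891 and 0.935). Snai1 had 17.4 and 34.7 CPM in 4T1 and 34.7 and 57.8 CPM in EMT6.5 and was not called (adjusted p = 0.271). Foxc2 and Tcf7l1 were higher in 4T1, Foxc2 at 23 and 77.8 CPM against 0 and 0.427 CPM in EMT6.5. Tcf7l1 was not called without 4T1 with Bend3 (adjusted p = 0.0816) or without EMT6.5 alone (0.188).

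Among 20 tested mesenchymal markers, 8 were lower and 3 higher in 4T1, against 5.66% and 4.52% of all genes, with a median of -0.73. Both 4T1 libraries lay below both EMT6.5 libraries for 10 and above both for 6, against 26.1% and 23.9% of all genes. The 3 higher genes are not reported here. The lower genes included contractile proteins. Smooth muscle actin, encoded by Acta2, had 3.95 and 8.20 CPM in 4T1, against 2840 and 659 CPM in EMT6.5 (log2 fold change -7.82, SE 0.762, edgeR adjusted p = 2.45e-05). Tropomyosin 2, encoded by Tpm2, had 1.16 and 2.34 CPM in 4T1, against 292 and 199 CPM in EMT6.5. The neural cell adhesion molecule Ncam1 had 1.86 and 1.17 CPM in 4T1, against 448 and 365 CPM in EMT6.5. The PDGF receptor Pdgfrb had 0.465 and 0 CPM in 4T1, against 24.8 and 85.8 CPM in EMT6.5.

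Several widely used mesenchymal markers were not called. Vimentin, encoded by Vim, had 1910 and 4950 CPM in 4T1, against 2250 and 3460 CPM in EMT6.5. Fibronectin, encoded by Fn1, had 1180 and 1250 CPM in 4T1, against 890 and 1120 CPM in EMT6.5. The receptor kinase Axl had 1250 and 953 CPM in 4T1, against 1310 and 837 CPM in EMT6.5. The edgeR adjusted p was 0.883 for Vim, 0.734 for Fn1 and 0.944 for Axl, with log2 fold changes of 0.15 (SE 0.397), 0.29 (SE 0.371) and 0.07 (SE 0.371).

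Fibrillar collagen genes were far lower in 4T1, whereas basement membrane collagen was higher in 4T1. Of 17 collagens tested, 6 were lower and 2 higher in 4T1, against 5.66% and 4.52% of all genes. Col1a1, one chain of type I collagen, had 4.41 and 6.09 CPM in 4T1 alone and with Bend3, against 1410 and 777 CPM in EMT6.5 alone and with Bend3 (log2 fold change -7.63, SE 0.552, edgeR adjusted p = 5.80e-06). Col1a2, the other chain, had 1.63 and 5.39 CPM in 4T1, against 1610 and 985 CPM in EMT6.5 (-8.54, SE 0.666, adjusted p = 6.93e-06). Col5a3, Col12a1, Col27a1 and Col5a1 were lower in 4T1 as well, with log2 fold changes of -8.54, -6.61, -4.44 and -2.24. Col4a1, of the basement membrane, had 311 and 359 CPM in 4T1, against 17.2 and 28.8 CPM in EMT6.5 (3.92, SE 0.419, adjusted p = 4.92e-05), and Col4a2, its head-to-head neighbour, had 141 and 165 CPM in 4T1, against 7.56 and 13.7 CPM in EMT6.5. Bend3 alone held 1420 CPM of Col4a1; the part of partner RNA in the co-culture values was not tested. Without EMT6.5 alone Col27a1 and Col5a1 were not called (adjusted p = 0.0799 and 0.0688), nor was Col5a1 without EMT6.5 with Bend3 (0.0873).

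Secreted matrix genes went with type I collagen. Of 17 tested, 6 were lower in edgeR, against 5.66% of all genes, and 6 in DESeq2. At an unadjusted p under 0.05, 10 were lower, with 0 higher by any of these. The median log2 fold change was -1.57. Versican, a large proteoglycan encoded by Vcan, had 0.232 and 0 CPM in 4T1, against 88.0 and 300 CPM in EMT6.5. The collagen cross-linking enzyme Loxl2 had 0 and 0.703 CPM in 4T1, against 130 and 88.5 CPM in EMT6.5, and Lox had no count in 4T1 and 12.1 and 7.68 CPM in EMT6.5. Not all of these were low in every 4T1 library of the series. Thrombospondin 1, encoded by Thbs1, had 43.4 and 31.4 CPM in 4T1, against 580 and 420 CPM in EMT6.5, yet 3230 to 3280 CPM in the shSCR libraries. Ccn1 and Ccn2, both lower in 4T1 here, also stood nearer to EMT6.5 in shSCR, and without the library of EMT6.5 alone their log2 fold changes were 0.10 and 0.13. Ccn1 and Ccn2 lost their calls without the block (adjusted p = 0.453 and 0.474), with all 7 libraries (0.187 and 0.153), without 4T1 with Bend3 (0.639 and 0.512) and without either EMT6.5 library (0.308 to 0.989). Ccn1 was also not called against 2-fold (0.252) or without 4T1 alone (0.0632), and Lox not without EMT6.5 alone (0.165).

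The 12 fibroblast markers, which share type I collagen with the list above, summed to 23.2 and 50.4 CPM in 4T1, against 3070 and 1860 CPM in EMT6.5. Of these markers 6 were at 0 in each EMT6.5 library, Dcn and Lum among them, and Col1a2 alone gave 1610 and 985 CPM. The leukocyte markers summed to 5.34 and 8.20 CPM in 4T1, against 80.5 and 64.6 CPM in EMT6.5. The highest leukocyte marker in EMT6.5 was Laptm5, a lysosomal membrane protein of blood cells, at 62.6 and 55.0 CPM, while Ptprc, the general leukocyte antigen, stood at 0.130 and 1.49 CPM. Laptm5 had been called lower in 4T1 but not in DESeq2 (adjusted p = 0.0917).

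Of 16 integrins tested, 6 were lower and 3 higher in 4T1, against 5.66% and 4.52% of all genes. Itgb5, another partner of alpha v, had 81.3 and 38.2 CPM in 4T1, against 439 and 316 CPM in EMT6.5 (log2 fold change -2.73, SE 0.4, edgeR adjusted p = 0.000595). Itgb8, Itgb7 and Itgb2 were lower too, with log2 fold changes of -5.41, -5.29 and -3.22. The alpha v chain Itgav itself had 109 and 94.4 CPM in 4T1 and 109 and 58.0 CPM in EMT6.5 and was not called (adjusted p = 0.668), nor was the common chain Itgb1 (adjusted p = 0.812). Itga6 and Itga3, chains of laminin receptors, were higher in 4T1. Itga6 had 226 and 581 CPM in 4T1, against 35.2 and 22.2 CPM in EMT6.5 (3.69, SE 0.528, adjusted p = 0.000493), and Itga3 had 826 and 502 CPM in 4T1, against 243 and 173 CPM in EMT6.5 (1.66, adjusted p = 0.0121). The collagen-binding Itga1 was called higher but rested on co-culture, with 4.18 and 207 CPM in 4T1 and 1.95 and 5.97 CPM in EMT6.5. Without EMT6.5 alone, Itga1, Itga3, Itgb2, Itgb5, Itgb7 and Itgb8 were not called (adjusted p = 0.0569 to 0.441), and without EMT6.5 with Bend3, Itga1, Itga3 and Itgb8 were not (0.137 to 0.404). Itga3 was also lost against 2-fold (0.154) and without 4T1 alone (0.0784), and Itgb7 in DESeq2 (0.0908). Itga1 was lost without the block (0.104), with all 7 libraries (0.055) and without 4T1 with Bend3 (0.975, log2 fold change 0.08).

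**Figure D3:**
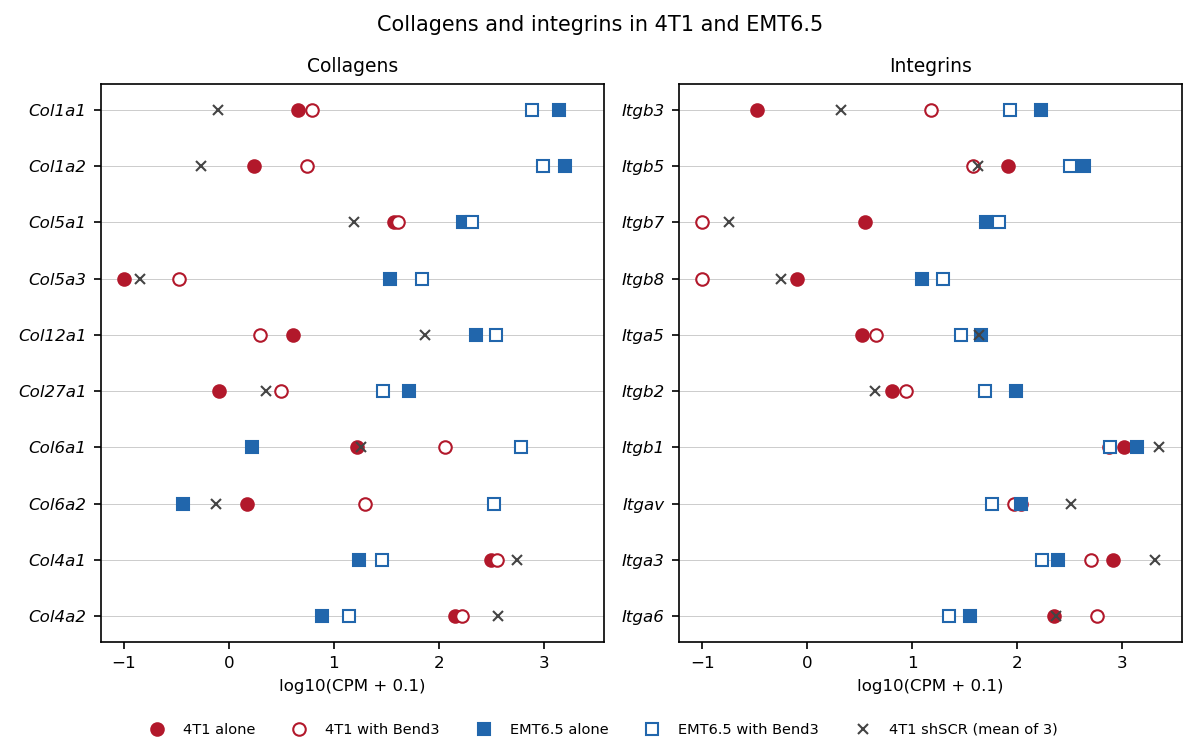
Levels of 10 collagens (left) and 10 integrins (right) as log10(CPM + 0.1). Red circles are 4T1, blue squares EMT6.5, filled for cells alone and open for cells sorted from Bend3 co-culture, and crosses are the mean of the 3 shSCR libraries of 4T1. Type I collagen genes and the beta 3, 5, 7 and 8 integrins lie to the right for EMT6.5, Col4a1, Col4a2, Itga3 and Itga6 lie to the right for 4T1, and Col6a1 and Col6a2 change order with culture.

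Matrix proteases were mixed, with 5 of 15 tested lower and 3 higher in 4T1, against 5.66% and 4.52% of all genes. Mmp9, a gelatinase, had 108 and 88.3 CPM in 4T1, against 19.9 and 25.0 CPM in EMT6.5. Urokinase, encoded by Plau, had 40.2 and 50.1 CPM in 4T1, against 313 and 110 CPM in EMT6.5, and the membrane protease Mmp14 had 126 and 202 CPM in 4T1, against 357 and 443 CPM in EMT6.5. Mmp3 was higher in 4T1, but mostly in co-culture, at 3.25 and 244 CPM against 0.130 and 0.853 CPM in EMT6.5. Without 4T1 with Bend3, without EMT6.5 alone or without EMT6.5 with Bend3 it was not called (edgeR adjusted p = 0.414, 0.22 and 0.0723). Mmp9 was not called without EMT6.5 alone (0.245) or without EMT6.5 with Bend3 (0.115). Plau lost its call against 2-fold, without 4T1 alone and without EMT6.5 alone (adjusted p = 0.0936 to 0.477), and Mmp14 without the block, against 2-fold, without 4T1 alone and without either EMT6.5 library (0.111 to 0.554).

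The list with the most lower genes in 4T1 was the targets of NRF2, the transcription factor of the oxidative and electrophile response. Of 36 tested, 16 were lower and 2 higher in 4T1, against 5.66% and 4.52% of all genes. The median log2 fold change was -1.32. Nqo1, a quinone reductase, had 2.56 and 5.39 CPM in 4T1 alone and with Bend3, against 166 and 148 CPM in EMT6.5 alone and with Bend3 (log2 fold change -5.33, SE 0.515, edgeR adjusted p = 2.31e-05). Glutathione transferases followed, with Gsta4 at 1.63 and 16.6 CPM in 4T1, against 209 and 499 CPM in EMT6.5, and Gstt1 at 0.465 and 6.33 CPM in 4T1, against 47.2 and 102 CPM in EMT6.5. Gsta1, Gstm1 and Gstm2 were lower too, but genes of these families have near copies, and entries aligned to several places, 48.2% to 55.3% of all entries in the co-culture set, were not counted. The NADPH enzymes G6pdx, Pgd and Me1 and the thioredoxin reductase Txnrd1 were lower in 4T1 by log2 fold changes of -2.30, -1.66, -1.64 and -1.81. In the shSCR libraries G6pdx, Pgd, Me1 and Txnrd1 stood nearer to EMT6.5 than to 4T1, while Nqo1 was at 1.73 ± 0.533 CPM (SD, n = 3). Gstm5 and Cbr1 were the pair higher in 4T1. Without EMT6.5 alone, G6pdx, Pgd, Me1, Txnrd1, Gsta1, Gstm2 and Cbr1 were not called (adjusted p = 0.0596 to 0.389). Without EMT6.5 with Bend3, G6pdx, Pgd, Me1, Txnrd1, Gstm1, Gstm2 and Gstt1 were not (0.0701 to 0.37), and without 4T1 alone, G6pdx, Pgd and Me1 were not (0.0596 to 0.138). G6pdx and Pgd were also lost without the block (0.068 and 0.0732), Me1 in DESeq2 (0.0559), and Me1, Pgd and Txnrd1 against 2-fold (0.0845 to 0.236).

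Sulphur amino acid enzymes split between the lines. Cth, which cleaves cystathionine to cysteine, had 99.0 and 16.2 CPM in 4T1 and no count in EMT6.5, at least 238-fold higher. Cbs, which makes cystathionine in the step before, had no count in 4T1 and 4.30 and 44.4 CPM in EMT6.5, at least 55.7-fold lower in 4T1. Each line carried transcripts of one of the enzymes and had no count of the other. DESeq2 called neither (adjusted p = 0.108 for Cth and 0.264 for Cbs), and Cbs was also not called without 4T1 alone (edgeR adjusted p = 0.0624) or without EMT6.5 with Bend3 (0.308). In shSCR, Cth stood at 7.52 ± 0.929 CPM and Cbs at 0.186 ± 0.175 CPM (SD, n = 3). Of the 22 tested genes of serine and folate metabolism, Shmt1 and Mthfd1l were the other members higher in 4T1, with log2 fold changes of 2.55 and 1.53, and 18 were not called. In this list 3 genes were higher and 1 lower in 4T1, or 18.2% called against 10.2% of all genes. Shmt1 and Mthfd1l lost their calls without either EMT6.5 library (adjusted p = 0.0968 to 0.451), and Mthfd1l also without 4T1 alone (0.0701) and against 2-fold (0.274).

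Glycolysis genes mostly did not pass the test, with 2 lower and 1 higher of 28, or 10.7% called against 10.2% of all genes. They still leaned lower in 4T1, with a median log2 fold change of -0.775. Both 4T1 libraries lay below both EMT6.5 libraries for 20 and above both for 4, against 26.1% and 23.9% of all genes. At an unadjusted p under 0.05 in edgeR, 8 were lower and 3 higher. The exception in size was the lactate exporter Slc16a3, also called MCT4, at 0 and 0.937 CPM in 4T1, against 158 and 112 CPM in EMT6.5 (log2 fold change -8.09, SE 0.766, edgeR adjusted p = 2.20e-05). Mitosis and replication genes had 3 higher and 1 lower of 41, or 9.76% called. Cyclin D2, encoded by Ccnd2, had 1220 and 311 CPM in 4T1, against 1.30 and 11.9 CPM in EMT6.5 (6.99, SE 1.02, adjusted p = 0.000585), and Ccnd1 was higher with a log2 fold change of 1.94. Ccnd1 was not called against 2-fold (adjusted p = 0.0958), without EMT6.5 alone (0.132) or without EMT6.5 with Bend3 (0.339).

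Single loci stood out among tumour suppressor and imprinted genes. Cdkn2a, a tumour suppressor locus of cyclin-dependent kinase and p53 control at chromosome 4, 89274471 to 89294653, had 0.232 and 0.234 CPM in 4T1, 1 count a library, against 17.9 and 20.3 CPM in EMT6.5 (log2 fold change -6.20, SE 0.929, edgeR adjusted p = 0.000714). No shSCR library held a count of Cdkn2a. Its neighbour Mtap, from 89137122 to 89181081 on the same chromosome, had 740 and 923 CPM in 4T1, against 340 and 275 CPM in EMT6.5 and was called higher (1.45, adjusted p = 0.0303), though not without the block, against 2-fold or without either EMT6.5 library (0.0536 to 0.458). Igf2r, the receptor that takes up IGF2 and is imprinted in mouse, had 238 and 704 CPM in 4T1, against 1.43 and 2.77 CPM in EMT6.5 (7.69, SE 0.518, adjusted p = 5.71e-06), and 464 ± 5.12 CPM in shSCR (SD, n = 3). Airn, the antisense transcript that overlaps Igf2r, was not called, with means of 18.6 CPM in 4T1 and 17.4 CPM in EMT6.5; whether counting used strand is not given, so reads where the pair overlap are uncertain.

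Growth factors were more often lower in 4T1, with 12 lower and 2 higher of 34 tested, against 5.66% and 4.52% of all genes. The median log2 fold change of the list was -0.98. Gdf15, a stress-induced factor, had 0.465 and 0.937 CPM in 4T1, against 224 and 84.3 CPM in EMT6.5 (-7.59, SE 0.654, edgeR adjusted p = 1.11e-05). The Wnt ligand Wnt10b had 6.74 and 9.84 CPM in 4T1, against 134 and 117 CPM in EMT6.5. The angiogenic factor Vegfa had 70.4 and 37.0 CPM in 4T1, against 285 and 132 CPM in EMT6.5, and Vegfd, Pdgfa, Pdgfc, Fgf2 and Angpt1 were lower as well. Areg and Pdgfb were higher in 4T1, with log2 fold changes of 2.07 for each. Of 21 growth factor receptors tested, 4 were higher and 2 lower in 4T1, or 28.6% called against 10.2% of all genes, with a median of -0.015. The 2 lower were Fgfr1 and Egfr. Fgfr1 had 1.39 and 4.92 CPM in 4T1, against 76.0 and 79.6 CPM in EMT6.5, and Egfr had a log2 fold change of -3.67. Of 22 cytokines tested, 3 were higher and 1 lower, against 4.52% and 5.66% of all genes. Tslp, an epithelial cytokine, had 34.6 and 276 CPM in 4T1, against 0.261 and 1.71 CPM in EMT6.5 (7.21, SE 0.562, adjusted p = 6.93e-06), and Il11 was lower, with a log2 fold change of -3.19. Many of these calls depended on the fit. Without the block, Angpt1, Areg, Fgf2, Pdgfa, Pdgfb and Vegfa were not called (adjusted p = 0.053 to 0.38), and against 2-fold Areg, Fgf2, Pdgfa, Pdgfb and Vegfa were not (0.0569 to 0.292). With all 7 libraries Areg, Pdgfa and Pdgfb were not called (0.0536 to 0.121). Without 4T1 alone, Angpt1, Areg, Pdgfa and Pdgfb were lost (0.0883 to 0.969), and without 4T1 with Bend3, Areg, Fgf2, Pdgfa, Pdgfb and Vegfa (0.0612 to 0.135). Without EMT6.5 alone, these 6 genes and Vegfd, Pdgfc, Tslp and Il11 were not called (0.0515 to 0.747). Without EMT6.5 with Bend3, the 6 and Vegfd and Egfr were not (0.0574 to 0.878).

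Antigen presentation genes were called in one direction. Of 23 tested, 6 were lower in edgeR, against 5.66% of all genes, and 6 in DESeq2. At an unadjusted p under 0.05, 14 were lower, with 0 higher by any of these. The median was -1.18. Cd74, the invariant chain of class II, had 16.3 and 6.79 CPM in 4T1, against 55.7 and 44.8 CPM in EMT6.5, and the immunoproteasome subunit Psmb9 had 21.1 and 27.6 CPM in 4T1, against 79.1 and 92.2 CPM in EMT6.5. The classical class I gene H2-K1 had 145 and 197 CPM in 4T1, against 387 and 382 CPM in EMT6.5, and missed the threshold (adjusted p = 0.0689). Class I genes have near copies, so their counts are uncertain. Of 34 interferon response genes tested, 4 were higher and 0 lower in edgeR (1 lower at an unadjusted p under 0.05, 0 in DESeq2), or 11.8% called against 10.2% of all genes, among them Rtp4 and Ifi44 with log2 fold changes of 3.54 and 2.74. All 4 of those stood nearer to EMT6.5 in shSCR. Cd74 and Psmb9 lost their calls against 2-fold (adjusted p = 0.0508 and 0.115), Cd74, Psmb9, Rtp4 and Ifi44 without EMT6.5 alone (0.109 to 0.327), and Cd74, Psmb9 and Ifi44 without EMT6.5 with Bend3 (0.0563 to 0.234).

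**Figure D4:**
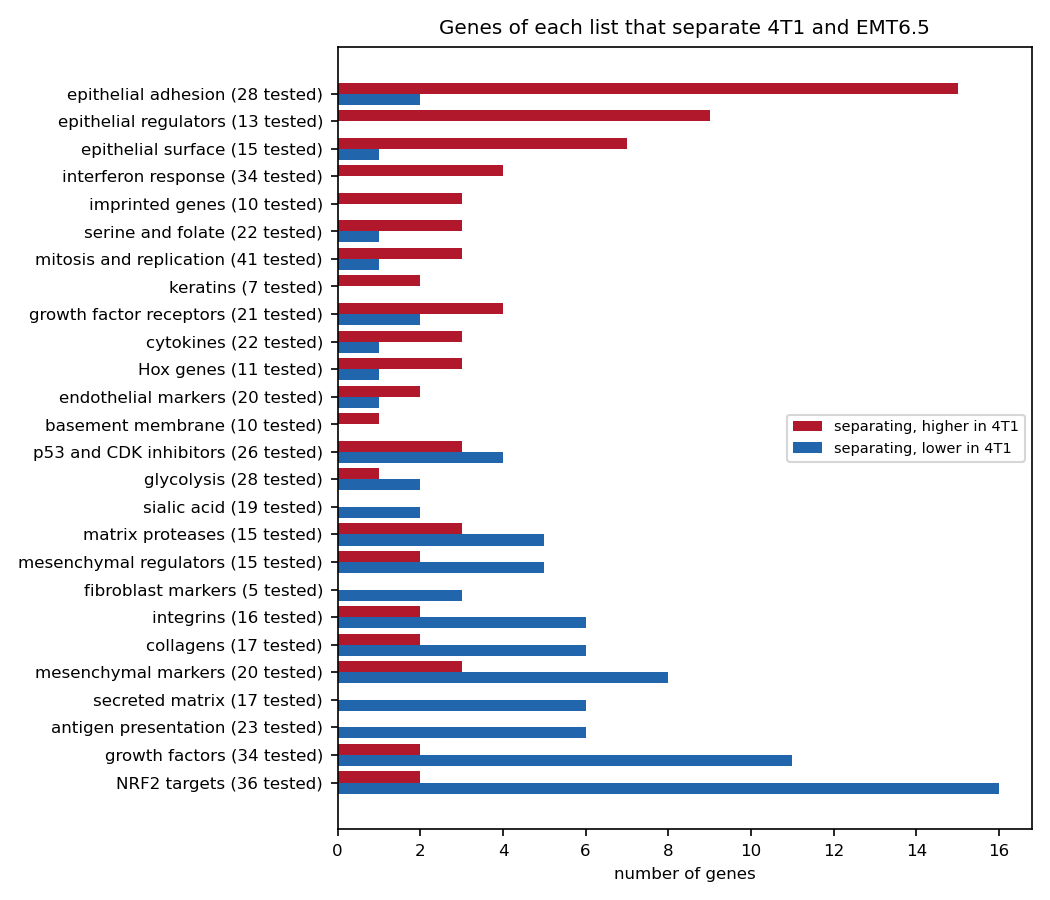
Number of genes in each list that separated the lines, higher in 4T1 (red, upper bar) and lower in 4T1 (blue, lower bar), for lists with at least 5 genes tested; the number tested is given beside each name. Epithelial lists lean to higher in 4T1 (15, 9 and 7 genes), and NRF2 targets, growth factors, matrix and integrin lists lean to lower in 4T1.

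Among the largest single differences, Fermt1, a kindlin that activates integrins in epithelia, had 177 and 54.1 CPM in 4T1 and no count in EMT6.5, at least 477-fold higher. Others with no count in EMT6.5 were Micu3 (a regulator of mitochondrial calcium uptake), Grb7 (a signalling adaptor), Rnf128, Nup210 (a nuclear pore protein), Cers6 (a ceramide synthase), Arfgef3, Kdf1, Misp, Pkia, Sgcb and Rnf219. Among the genes lower in 4T1, Igfbp6, which binds IGF2, had no count in 4T1 and 38.1 and 109 CPM in EMT6.5, at least 186-fold lower in 4T1. Cthrc1 (a collagen-associated secreted protein), Rcn3, Irx5, Tgfb1i1 (a focal adhesion protein), Pcdh7, Naip2, Ifi213, Nwd2 and Slc17a9 also had no count in 4T1. Naip2 and Ifi213 belong to families with near copies. All 22 genes named here were called in edgeR, but none in DESeq2 (adjusted p = 0.0568 to 0.216), with 0.0568 for Fermt1 and 0.108 for Igfbp6.

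Genes near 0 numbered 137 in EMT6.5, 66 of them with no count, and 106 in 4T1, 40 of them with no count. How they behave in the contrast follows from how they were chosen, so the shSCR libraries, which the contrast did not use, were read instead. Of the 95 genes near 0 in 4T1 that could be matched by symbol, 93 (97.9%) were also below 1 CPM in shSCR, with a median of 0.0351 CPM. The exceptions were Vcan at 1.29 ± 0.237 CPM and Mb21d2 at 5.4 ± 0.482 CPM (SD, n = 3). Of the 136 matched genes near 0 in EMT6.5, and present in 4T1, 9 (6.62%) were below 1 CPM in shSCR and 112 were at 5 CPM or more, with a median of 26.4 CPM. Of all 10954 tested genes matched, 6.83% were below 1 CPM in shSCR. The 9 were Sfrp1, Cyp24a1, Abcc3, Pitx1, Slc9a9, Fxyd3, Cxcr3, Id4 and Dmd. Fxyd3, for one, had 0 CPM in 4T1 alone and 27.2 CPM in 4T1 with Bend3.

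**Figure D5:**
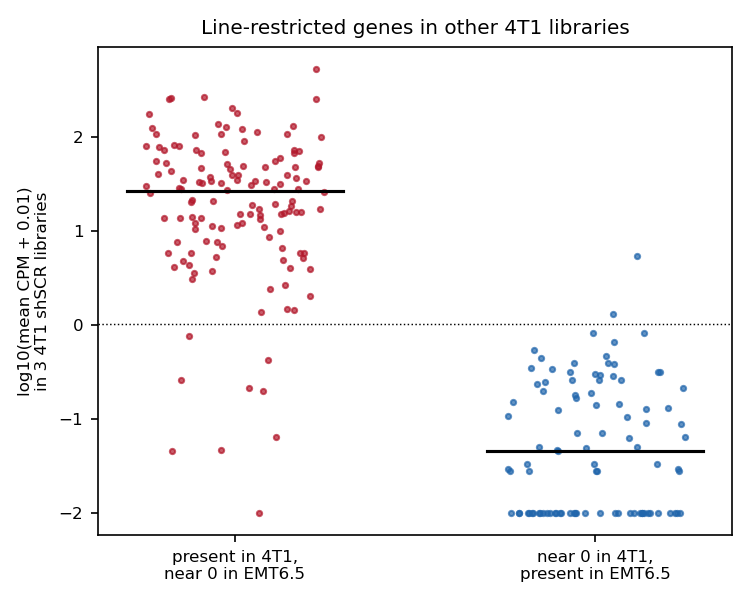
Mean level of each line-restricted gene in the 3 shSCR libraries of 4T1, as log10(mean CPM + 0.01), for genes present in 4T1 and near 0 in EMT6.5 (left, 136 genes) and genes near 0 in 4T1 and present in EMT6.5 (right, 95 genes). Black bars are medians (26.4 and 0.0351 CPM), and the dotted line marks 1 CPM, above which lie 127 genes on the left and 2 on the right.

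Over all separating genes, the shSCR level lay nearer to 4T1 than to EMT6.5 on the log2(CPM + 0.5) scale for 75.9% of 502 matched genes higher in 4T1 and for 86.3% of 621 lower in 4T1, against 56.6% of 9831 genes that did not separate the lines. The tables were counted separately, so these levels are set across tables. By list, shSCR lay nearer to 4T1 for 16 of 17 separating junction genes, 8 of 8 epithelial surface genes, 7 of 7 mesenchymal regulators and 7 of 8 collagens. The numbers were 11 of 18 for NRF2 targets, 4 of 8 for matrix proteases, 3 of 6 for secreted matrix genes and 0 of 4 for interferon response genes.

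Along the chromosomes (GRCm38, GENCODE vM21), median log2 fold changes ran from -0.32 on chromosome 15 to 0.31 on chromosome 10, and the share of tested genes that separated the lines ran from 7.04% on chromosome 12 to 15.3% on chromosome 15. Genes near 0 in one line seldom neighboured each other among genes with at least 10 CPM in a line. A run of 3 in EMT6.5 lay on chromosome 14 from 103650228 to 104522645 and held Slain1, Pou4f1 and Rnf219. The 2 runs of 3 in 4T1 held only gene models without a common name.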

How the data were processed

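RNA-seq gene counts were analysed for 4 co-culture libraries, with the 3 Bend3 and 3 shSCR libraries as context. Per the labels' protocols, RNA was taken with TRIzol, co-cultured cells were separated by FACS beforehand, and stranded mRNA libraries were read as 50 bp single ends. The authors deposited raw counts per gene; the submitters' processing notes name Trim Galore 0.5.0, HISAT2 2.1.0, HTSeq (version not given) and GRCm38. Annotation and counting settings are not given in the sources used here. Summary lines of the deposited counts were left out; multiply aligned entries, 48.2% to 55.3% of the total in the co-culture set, were thus not counted. The shSCR counts came from a table by symbol, of whose 16 library columns 13 were not used.

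The fit used edgeR 4.0.16 in R 4.3.3 with TMM, the default filter on low counts, line and culture as terms and 1 residual degree of freedom (biological coefficient of variation 35.7%). The labels do not name separate cultures, so p-values reflect only how far these libraries scatter, possibly for technical reasons. Intervals and floors cover counting error only. The 28 gene lists (823 genes) were read beside all genes; 1 list symbol was not found and none of the 10 sex chromosome genes passed the filter. Printed genes were Cdh1, Itgb3 and Phgdh, the 15 largest separating differences a direction with 20 CPM or more in the higher line, up to 8 members a list, and genes near 0; some genes that this rule picks are not reported here. Mb21d2 and the 9 genes of low shSCR level, Airn, Dcn, Lum and Ptprc were named after their values were seen. The members and lists were chosen with earlier results of these data known. The script was tested on simulated data. Alternatives were normalization, filter, block, tool, a fold threshold, all 7 co-culture libraries and each library left out.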

Additional observations from a re-analysis of the deposited data

Results flagged for a closer look

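Of the 521 list members tested, 8 with at least 20 CPM in 1 library lay at least 2-fold apart in opposite directions in the cultures. In these, 4T1 lay on one side of EMT6.5 when alone and on the other side in co-culture. Over all 12005 genes tested, with no limit on CPM, 187 did so. With 1 library a line and culture the difference between cultures was not tested. Values are log2 ratios of 4T1 to EMT6.5. The type VI collagen genes were higher in 4T1 alone and lower in 4T1 from co-culture. Col6a1 gave 3.12 alone and -2.38 in co-culture, from 16.5 and 115 CPM in 4T1 alone and with Bend3, against 1.56 and 607 CPM in EMT6.5 alone and with Bend3. Col6a2 gave 1.46 and -4.02, from 1.39 and 19.9 CPM in 4T1, against 0.261 and 333 CPM in EMT6.5. The other 6 were lower in 4T1 alone and higher in 4T1 from co-culture. The laminin-binding integrin Itgb4 gave -1.07 and 1.33, from 58.8 and 312 CPM in 4T1, against 124 and 125 CPM in EMT6.5. The replication helicase gene Mcm7 gave -1.17 and 1.06, and the stromelysin Mmp10 gave -3.54 and 3.13. Pdgfra gave -1.06 and 1.49, and Fgfbp1 gave -1.06 and 3.62, the latter from 4.22 CPM in 4T1 with Bend3 and 0 CPM in EMT6.5 with Bend3. Emcn, an endothelial marker, gave -1.06 and 1.18, from 11.2 and 35.8 CPM in 4T1, against 23.9 and 15.8 CPM in EMT6.5, beside endothelial marker sums of 245 and 566 CPM in 4T1 and 219 and 241 CPM in EMT6.5. The part of partner RNA in it was not tested.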

How the results depend on the processing

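Under RLE size factors, library totals, no filter, a mean of at least 5 CPM, DESeq2 and all 7 co-culture libraries, the 4 counts of genes higher, lower and separating stayed within 1.5 times their values. Without the replicate block for culture, 396 genes were higher (391 of them among the 543) and 452 lower (450 of the 680), all of them separating. Testing against 2-fold with glmTreat left 347 higher and 418 lower, 417 of these separating. Leaving out 1 library drops the block, compares cultures across lines and assumes that a lone library varies like the others. It gave 168 to 733 genes higher and 177 to 791 lower, for called and separating genes alike, fewest without EMT6.5 alone (168 and 177) and without EMT6.5 with Bend3 (203 and 244). Of 142 named genes called, 108 were called in DESeq2, 117 without the block, 77 without EMT6.5 alone and 89 without EMT6.5 with Bend3. Signs turned for the following genes, of which Ccn1 and Ccn2 had been called. Airn gave 0.13 without the block and -1.90 to 1.17 with 1 library left out, and Col6a1 -2.20 without the block, -0.07 with all 7 libraries and -4.23 to 5.42. With 1 library left out the log2 fold changes ran from -0.23 to 0.40 for Axl, -3.33 to 0.10 for Ccn1, -6.26 to 0.13 for Ccn2, -6.90 to 5.27 for Col6a2, -0.07 to 0.82 for Itgav, -0.60 to 0.22 for Itgb1, -1.23 to 0.31 for Krt8, -0.56 to 1.62 for Pecam1, -0.33 to 0.47 for Twist1, -0.59 to 0.82 for Vim, -0.10 to 0.45 for Zeb2, -0.84 to 0.88 for Emcn, -1.74 to 8.29 for Fgfbp1, -1.09 to 1.36 for Itgb4, -0.82 to 0.59 for Mcm7, -3.09 to 2.39 for Mmp10 and -1.34 to 1.72 for Pdgfra. Without the block Fgfbp1 gave -0.69, Mcm7 0.05 and Mmp10 0.20. The cause was not tested. Depth limits genes without a count: 3 counts over both libraries equal 0.35 CPM in 4T1 and 0.243 CPM in EMT6.5.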

Other observations

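Hox genes, further imprinted genes and sialic acid genes held a few line differences, with 36.4%, 30% and 15.8% of tested members called, against 10.2% of all genes. Of 11 Hox genes tested, Hoxa2, Hoxa3 and Hoxa5 were higher in 4T1, with Hoxa5 at 227 and 480 CPM in 4T1 alone and with Bend3, against 92.0 and 121 CPM in EMT6.5 alone and with Bend3 (log2 fold change 1.66, edgeR adjusted p = 0.0152). Hoxb3 was lower in 4T1, at 0 and 1.87 CPM against 8.34 and 13.4 CPM in EMT6.5. Of 10 imprinted genes tested, Ppp1r9a was higher in 4T1 beside Igf2r, at 102 and 60.2 CPM against 1.17 and 1.07 CPM in EMT6.5, and Snrpn was higher at 11.4 and 4.45 CPM against 0.130 and 0 CPM in EMT6.5, though no shSCR library held a count of it. Of 19 sialic acid genes tested, 3 were lower in 4T1, St3gal5, St6galnac6 and Nagk, with log2 fold changes of -2.42, -1.92 and -1.61. Without EMT6.5 alone, Hoxa2, Hoxa3, Hoxa5, Hoxb3, Snrpn, St3gal5, St6galnac6 and Nagk were not called (edgeR adjusted p = 0.137 to 0.555), and without EMT6.5 with Bend3 the same genes other than Hoxa2 were not (0.0955 to 0.533). Without the block, Hoxa2, Hoxa5, Hoxb3, St3gal5, St6galnac6 and Nagk were not called (0.0542 to 0.262). Without 4T1 alone, Hoxb3, Snrpn, St3gal5, St6galnac6 and Nagk were lost (0.11 to 0.208), and without 4T1 with Bend3, Hoxa2 and Hoxa5 (0.124 and 0.0869). Against 2-fold, Hoxa5, Hoxb3, St3gal5, St6galnac6 and Nagk were not called (0.0834 to 0.274), and with all 7 libraries St3gal5 was not (0.125).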
